A study of Mus musculus with 12 samples.

Results

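The 56 genes described here encode the machinery of mitosis: the spindle checkpoint, the kinases and cyclins that drive entry into M phase, the kinetochore, the mitotic kinesins and the proteins of cytokinesis. They are the rows of the count table, 56 of 31301 genes, that carry the listed symbols and average at least 1 CPM (counts scaled to a common library size) over the 12 libraries. All 56 were inside this limit, the lowest being Cdc25c at a mean of 2.89 CPM and Cenph at 3.85 CPM, so no listed gene fell outside. The cells were bone marrow-derived basophils (BMBAs) of wild-type C57BL/6J mice, kept for 7 days in culture with 1 of the cytokines that elicit basophils from bone marrow, IL-3 at 0.3 ng/mL or TSLP at 1 μg/mL (the value of the treatment protocol, where the sample characteristics give the TSLP dose in mg). After the culture, the study sorted an FcεRIα hi CD49b lo fraction, called immature here (the pre-basophils of the study), and an FcεRIα lo CD49b hi fraction, called mature. Stage and cytokine together made 4 groups, each of 3 libraries of polyadenylated RNA, which are named by the cytokine and the stage, such as IL-3 immature or TSLP mature. All 4 groups are cultured cells of a single strain, and each is the content of a sort gate rather than a pure cell type. Per the study, the libraries of a group came from separate cultures. Whether these came from separate mice is not given in the sources used here.

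When a cell enters mitosis, CDK1 with its A- and B-type cyclins starts chromosome condensation, Polo and Aurora kinases build the spindle, and kinetochores tie the chromosomes to it. The checkpoint holds back the anaphase-promoting complex (APC/C) until every kinetochore is attached. CDC20 then directs the APC/C to securin and the cyclins, and the midbody proteins divide the cell. Transcripts of these genes accumulate in G2 and M phase and are low in cells that have left the cycle. In bulk libraries such as these, fewer dividing cells and less of each RNA per cell cannot be told apart.

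The libraries held 1720065 to 3685285 counts, and 10861 genes passed the filter on low counts, all 56 mitotic genes among them. Values are CPM scaled by TMM factors and serve to compare libraries for 1 gene, not genes with one another, because they are not divided by length. Markers other than the sorted proteins differed between the gates: the level in mature cells as a percentage of that in immature cells was 2.49 (IL-3) and 4.34 (TSLP) for Clec12a and 287 and 200 for Cd9. One library stood apart. TSLP mature 1 held 156 CPM of a B lineage list of 10 genes, 9 of which were in the count table. The other 2 TSLP mature libraries held 19.0 and 21.2 CPM of it, and IL-3 mature libraries 2.14 to 2.91 CPM. Of a neutrophil lineage list, TSLP mature 1 held 889 CPM, against 92.8 and 76.9 in the other 2. Results that rest on TSLP mature 1 are given with and without it. The mast cell list summed to at most 8.91 CPM in any library, with Tpsab1 and Mrgprb2 at 0 in all 4 groups.

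Late cell cycle promoters are known for 2 short elements, the CHR (cell cycle genes homology region, the site of the DREAM, B-MYB and FOXM1 complexes) and CCAAT boxes (the site of NF-Y). Promoter windows from RefSeq (GRCm38.p6), from 250 bases before to 50 bases after the start, were matched by symbol for 44 of the 56 genes. The CHR was read as TTTGAA or TTCGAA and the CCAAT box as CCAAT, on both strands, and in 1 gene a CHR word overlapped another motif. A CHR word lay in 34 of the 44 windows (77.3%), against 19.4% of all 27025 windows, and within 50 bases of the start in 31 of them (70.5%), against 5.29%. CCAAT lay in 33 (75%, against 37.9%) and both words in 29 (65.9%, against 7.7%). The E2F words TTTGGCGC, TTTCGCGC and TTTCCCGC, on either strand, were in 3 windows (6.82%, against 1.91%). The following 150-base stretches, all on the minus strand, are shown because they hold both words upstream of genes whose transcripts differed strongly between the stages. Capitals mark the words, where ATTGG is a CCAAT box on the other strand. The stretches lie at chr10:69352939-69353088, chr4:118437353-118437502, chr11:99024190-99024339 and chr7:135716380-135716529.
Cdk1: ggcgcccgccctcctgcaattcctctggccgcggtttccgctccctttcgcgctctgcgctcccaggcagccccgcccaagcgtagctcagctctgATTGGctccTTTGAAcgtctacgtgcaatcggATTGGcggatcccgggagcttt
Cdc20: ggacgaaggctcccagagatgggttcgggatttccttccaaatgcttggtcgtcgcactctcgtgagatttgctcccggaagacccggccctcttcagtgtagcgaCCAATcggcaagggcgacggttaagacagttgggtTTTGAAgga
Top2a: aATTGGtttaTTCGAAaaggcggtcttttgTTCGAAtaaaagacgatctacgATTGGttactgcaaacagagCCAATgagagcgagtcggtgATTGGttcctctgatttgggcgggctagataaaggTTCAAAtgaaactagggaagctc
Mki67: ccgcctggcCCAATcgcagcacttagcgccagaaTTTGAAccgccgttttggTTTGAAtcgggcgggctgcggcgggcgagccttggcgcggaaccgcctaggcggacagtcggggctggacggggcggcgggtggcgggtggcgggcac

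In many of the other genes the CHR lay just after the start. The 30 bases around it, again with the words in capitals, are shown for genes on both sides of a limit of 10% of the immature level in IL-3 mature cells. Bub1, Plk1 and Ccnb2 were under 10%, and Bub3, Kif20b, Kif23 and Hmmr above it, though these 4 were also higher in immature cells. The split was made after the values were seen, and a part of the word in it was not tested. The word begins 43 bases before the start in Bub3 and 3 to 31 bases after it in the others. They lie at chr2:127831828-127831857 (minus), chr7:122159453-122159482 (plus), chr9:70421533-70421562 (minus), chr7:131560315-131560344 (plus), chr19:34922353-34922382 (plus), chr9:61946780-61946809 (minus) and chr11:40733412-40733441 (minus).
Bub1: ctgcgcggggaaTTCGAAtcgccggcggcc
Plk1: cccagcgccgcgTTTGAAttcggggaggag
Ccnb2: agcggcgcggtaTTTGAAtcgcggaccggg
Bub3: gagccgttggcgTTCAAAatcagCCAATga
Kif20b: gagccgccattgTTTGAATTTGAAaaccgg
Kif23: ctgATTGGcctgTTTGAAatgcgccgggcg
Hmmr: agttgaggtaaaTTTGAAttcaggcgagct
Among the 6 genes above 10%, 5 had a window and 4 of these held a CHR, beside 30 of 39 windows of the other genes. The fifth, Pttg1, held neither word, but its RefSeq start lies 270 bases inside the GENCODE gene, as that of Bub3 does by 148 bases.

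To see how the mitotic genes changed with maturation under IL-3, the immature and the mature fractions of the IL-3 cultures were compared. Of the 56 genes, 55 were higher in IL-3 immature cells (98.2%, against 22.1% of all tested genes) and 1, Pttg1, was lower (against 24.1%; edgeR quasi-likelihood test, adjusted p below 0.05). However, 38 of the 56 passed the filter on low counts only through immature cells, the side on which they were higher. The shares of all tested genes are therefore not a like comparison. The median log2 difference was 5.80 over the 56 genes and -0.07 over all tested genes, and it was 5.69 with the 6 genes that had no count in IL-3 mature cells set to the bound that 3 counts allow. Their summed level was 4688 to 5050 CPM in the 3 IL-3 immature libraries and 219 to 228 CPM in the 3 IL-3 mature libraries. Each of the 55 genes was higher in all 3 immature than in all 3 mature libraries, but how many of all tested genes were so separated was not counted. The genes remained in the mature fraction at a median of 1.67% of their immature level (quartiles 1.03% and 3.14%), and 50 of 56 were under 10%. The clearest marker of cycling cells in this list, Mki67, read 600.1, 665 and 732 CPM in IL-3 immature libraries 1 to 3 and 8.19, 9.47 and 6.77 CPM in IL-3 mature libraries. The calls of these 55 genes held under each alternative of normalisation, filter, test, depth or left-out library in which the gene was tested. Markers of other lineages also differed between these groups: neutrophil lineage genes summed to 743 to 819 CPM in IL-3 immature and 207 to 317 CPM in IL-3 mature libraries. Mpo, left at 0.218% of its immature level in IL-3 mature cells, made up 87.5% to 92.8% of the immature sum, and without it the list read 59.3 to 92.6 CPM in immature and 205 to 314.5 CPM in mature libraries, the other way round. Monocyte and macrophage genes summed to 16.9 to 41.2 and 226 to 316 CPM, with none of either list at 0 in either group. Most of this rise was Ly6c2, at 6.62 to 10.2 and 126 to 162 CPM, and Adgre1, at 3.14 to 5.34 and 78.9 to 113 CPM. C1qa, at 0.993 to 8.25 and 0.451 to 3.56 CPM, C1qb and Mrc1 overlapped between the groups. The part of both lists in the result was not tested.

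**Figure D1:**
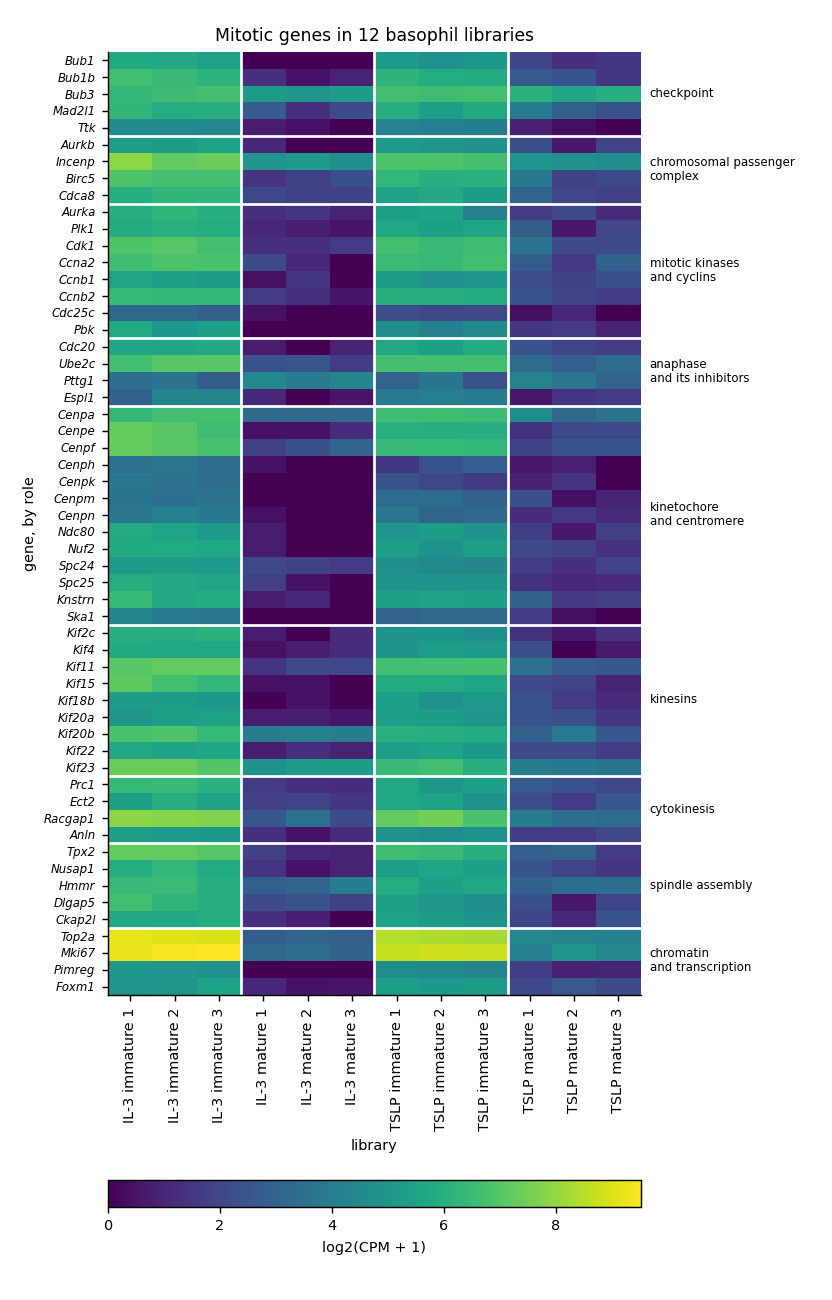
Level of each of the 56 mitotic genes, as log2(CPM + 1) by colour, in the 12 libraries (columns), with genes in rows by role. The 6 immature libraries are bright for nearly every gene, while the 3 IL-3 mature libraries are darkest, with no count of Bub1, Pbk, Cenpk, Cenpm, Ska1 or Pimreg.

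The same comparison in the TSLP cultures gave the same count. Of the 56 genes, 55 were higher in TSLP immature than in TSLP mature cells (98.2%, against 12.2% of all tested genes), none was lower (against 12.9%; none at an unadjusted p below 0.05 and none with DESeq2), and Pttg1 did not pass the test. Here too 38 of the 56 passed the filter on low counts only through immature cells, so these shares are not a like comparison. The median log2 difference was 3.65 over the 56 genes and -0.03 over all tested genes. The summed level was 3084 to 3443 CPM in TSLP immature and 417, 309.5 and 289.8 CPM in TSLP mature libraries 1 to 3. Mature cells kept a median of 7.92% of the immature level (quartiles 6.46% and 10.9%, lowest Ttk at 2.35%), with 38 of 56 genes under 10%. Without TSLP mature 1 this median was 6.28%. The count of 55 was 54 or 55 whichever library was left out. Here the monocyte and macrophage list read 94.7 to 124 CPM in immature and 363 to 621 CPM in mature libraries, most of it again Ly6c2 and Adgre1. The part of this list in the result was not tested. 

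**Figure D2:**
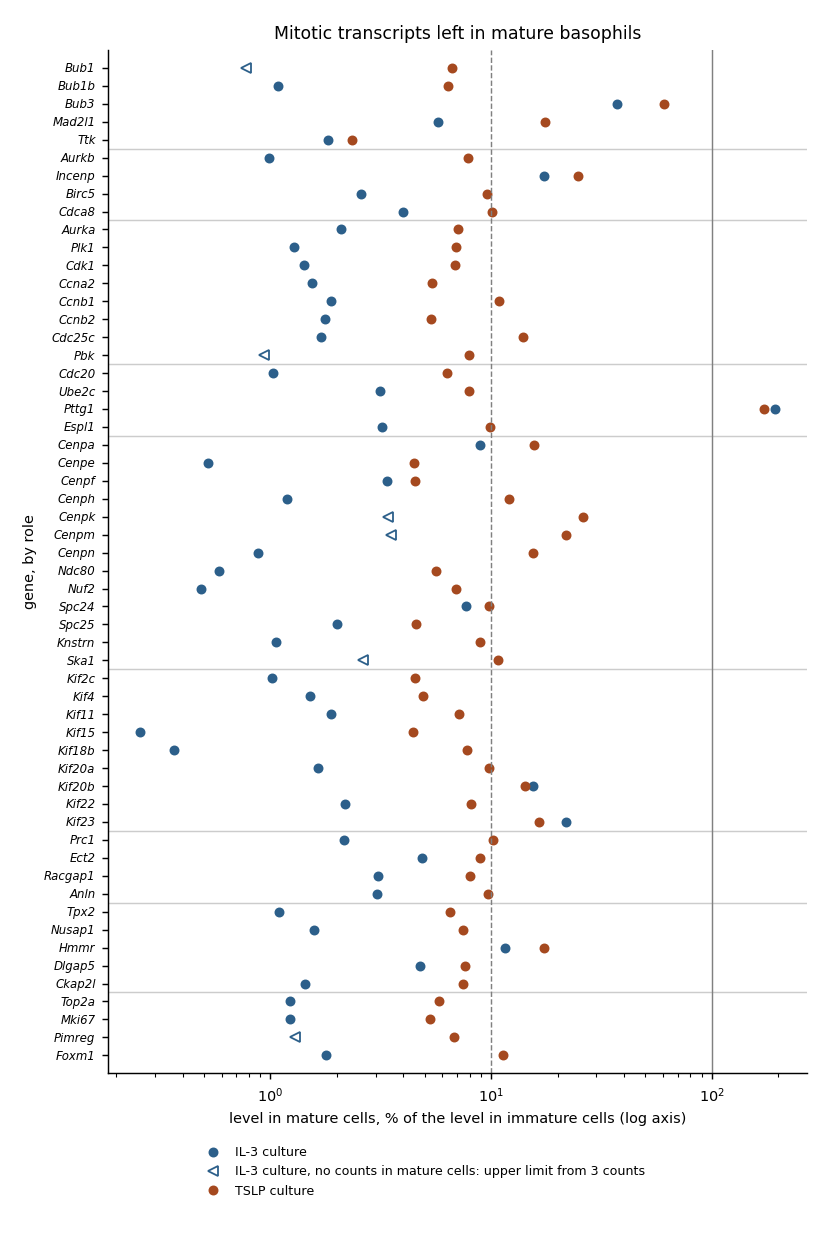
Level of each gene in mature cells as a percentage of its level in immature cells of the same culture (log axis), from counts pooled over 3 libraries per group. Most IL-3 points lie near 1 to 3% and most TSLP points between 4 and 11%. Open triangles are upper limits from 3 counts for the 6 genes with no count in IL-3 mature cells, the dashed line marks 10% and the solid line 100%.

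The 5 spindle checkpoint genes were all higher in immature cells of both cultures. Bub1, the kinase that recruits the checkpoint to kinetochores, read 53.9, 53.1 and 43.04 CPM in IL-3 immature and 34.6, 26.6 and 32.7 CPM in TSLP immature libraries. It had no count in any of the 3 IL-3 mature libraries, which makes it at least 129-fold higher in IL-3 immature cells (3 counts over the group as the floor, edgeR adjusted p = 3.41e-09), but 11, 5 and 6 counts in TSLP mature libraries. Bub1b, the BubR1 subunit of the checkpoint complex that inhibits CDC20, went from 85.1 ± 14.4 to 0.897 ± 0.530 CPM (mean ± SD, n = 3) in IL-3 and from 62.2 ± 7.86 to 3.92 ± 1.93 CPM in TSLP cultures. Ttk (MPS1), the kinase at the top of the checkpoint, was low in both mature groups, at 2, 1 and 0 counts in IL-3 and 3, 1 and 0 counts in TSLP. Its log2 difference between the stages was 5.64 ± 0.49 in IL-3 and 5.26 ± 0.46 in TSLP (SE, edgeR adjusted p = 1.31e-07 and 6.39e-07). Mad2l1, the checkpoint protein that binds CDC20, fell to 5.74% of its immature level in IL-3 and 17.5% in TSLP. Bub3, which carries BUB1 and BUBR1 to kinetochores, was the member of this group that changed least, and it is described below.

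The 4 genes of the chromosomal passenger complex, which corrects wrong attachments and later guides cytokinesis, were all higher in immature cells, but by unequal amounts. Aurkb, its kinase, read 37.8, 35.4 and 44.7 CPM in IL-3 immature libraries and had 3, 0 and 0 counts in IL-3 mature libraries, while TSLP mature libraries had 15, 2 and 9 counts. Birc5 (survivin) fell from 106 ± 8.33 to 2.80 ± 1.16 CPM in IL-3 (log2 difference 5.27 ± 0.45, SE, edgeR adjusted p = 1.29e-07) and from 69.4 ± 8.01 to 6.48 ± 6.09 CPM in TSLP cultures. The large SD in TSLP mature cells came from library 1, at 13.5 CPM beside 2.55 and 3.39. Cdca8 (borealin) was left at 3.98% and 10.1% of its immature level. Incenp, the scaffold of the complex, stayed at 17.3% and 24.8%, beside 0.983% and 7.87% for Aurkb.

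All 8 mitotic kinases, cyclins and their partners were higher in immature cells of both cultures. Cdk1 read 118, 131 and 104 CPM in IL-3 immature and 1.43, 1.46 and 2.26 CPM in IL-3 mature libraries. In TSLP cultures it read 102, 83.2 and 92.95 CPM in immature and 11.3, 3.69 and 3.69 CPM in mature libraries. The log2 difference was 6.09 ± 0.39 in IL-3 and 3.87 ± 0.31 in TSLP (SE, edgeR adjusted p = 4.6e-09 and 2.61e-07). Ccnb1 and Ccnb2, the B-type cyclins that activate CDK1 in mitosis, were 1.88% and 1.76% of their immature level in IL-3 mature cells and 10.8% and 5.32% in TSLP mature cells. Ccna2 (cyclin A2) was 1.54% and 5.38%. Plk1, the Polo kinase of spindle assembly, read 1.07, 0.729 and 0.451 CPM in IL-3 mature and 5.94, 0.567 and 3.08 CPM in TSLP mature libraries, after 59.8 ± 4.27 and 46.2 ± 4.45 CPM in the immature groups. Of the TSLP mature libraries, library 2 was inside the IL-3 mature range. Aurka, the spindle pole kinase, was 2.09% and 7.11% of its immature level. Pbk, a mitotic MAP kinase kinase-like protein, had no count in IL-3 mature libraries and 7, 8 and 3 counts in TSLP mature libraries. Cdc25c, the phosphatase that activates CDK1, had 1, 0 and 0 counts in IL-3 mature and 1, 4 and 0 in TSLP mature libraries. Of the Ccnb1 transcripts' 50-base words, 23.4% occur in other genes, mostly pseudogenes, and 10.4% of those of Cdc20 and 6.56% of those of Plk1 do, so part of their counts could have been assigned elsewhere. The same holds for 4.53% in Pbk and 4.04% in Racgap1.

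Of the 4 genes around the APC/C, 3 were higher in immature cells of both cultures. Cdc20, the mitotic activator of the APC/C, read 46.6, 48.9 and 52.97 CPM in IL-3 immature and 0.712, 0 and 0.902 CPM in IL-3 mature libraries. It was 49.5 ± 8.06 CPM in TSLP immature and 3.10 ± 1.11 CPM in TSLP mature cells. Ube2c, the ubiquitin-conjugating enzyme of the APC/C, was left at 3.12% and 7.92% of its immature level, and Espl1 (separase), which cuts cohesin, at 3.2% and 9.86%. Pttg1 (securin), the inhibitor of separase, went the other way. It read 9.70, 11.7 and 5.96 CPM in IL-3 immature and 20.7, 13.8 and 19.4 CPM in IL-3 mature libraries, without overlap between the groups. The log2 difference was -0.97 ± 0.38 (SE, edgeR adjusted p = 0.0485). In TSLP cultures the libraries overlapped, at 6.92, 12.1 and 4.09 CPM in immature and 18.4, 12.5 and 7.08 CPM in mature libraries (log2 difference -0.74 ± 0.39, SE, edgeR adjusted p = 0.181). The IL-3 call was lost under 5 of the 8 alternatives other than leaving out a single library, among them DESeq2 and thinning to equal depth. It was also lost when any 1 of the 6 IL-3 libraries was left out, and without TSLP immature 1, TSLP immature 2 or TSLP mature 2, whose spread enters the shared fit.

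All 13 kinetochore and centromere genes were higher in immature cells of both cultures. Cenpa, the histone H3 variant of centromeres, was left at 8.9% and 15.7% of its immature level, and read 8.91, 8.74 and 8.57 CPM in IL-3 mature and 23.5, 7.94 and 11.7 CPM in TSLP mature libraries, which overlap. Cenpe, the kinetochore kinesin that moves chromosomes to the spindle equator, fell from 155, 131 and 92.4 to 0.356, 0.364 and 1.35 CPM in IL-3 libraries (log2 difference 7.51 ± 0.38, SE, edgeR adjusted p = 7.53e-10). In TSLP libraries it fell from 64.7, 60.95 and 59.9 to 1.62, 3.41 and 3.39 CPM (4.46 ± 0.30, edgeR adjusted p = 5.28e-08). Cenpf, a large kinetochore protein, was 3.39% and 4.5% of its immature level. The 4 subunits of the NDC80 complex, which binds microtubules, were left at 0.584% (Ndc80), 0.483% (Nuf2), 7.71% (Spc24) and 2% (Spc25) of their immature level in IL-3 mature cells. Ndc80 and Nuf2 each had 2, 0 and 0 counts there. The inner kinetochore genes Cenph, Cenpk, Cenpm and Cenpn had 1, 0, 0 and 1 counts in all IL-3 mature libraries together. Ska1, of the complex that holds kinetochores to microtubule ends, had none, and Knstrn, a kinetochore protein that binds spindle microtubules, had 2, 3 and 0. For Cenpk in TSLP cultures the difference was close to the threshold (log2 difference 1.88 ± 0.64, SE, edgeR adjusted p = 0.0448), and it was lost under 8 of the alternatives.

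The 9 mitotic kinesins were all higher in immature cells. Kif11 (Eg5), which pushes the spindle poles apart, read 131, 147 and 149 CPM in IL-3 immature and 1.78, 3.28 and 3.16 CPM in IL-3 mature libraries (log2 difference 5.69 ± 0.30, SE, edgeR adjusted p = 8.26e-10). In TSLP it went from 103 ± 4.96 to 7.22 ± 3.35 CPM. Kif15, which can take over from Kif11, was the kinesin with the smallest share left in IL-3 mature cells, 0.256% with 1, 1 and 0 counts, and Kif18b, which works with Kif2c at microtubule ends, had 0, 1 and 0. Kif20a, which brings the passenger complex to the midzone, was 1.64% and 9.82% of its immature level. Kif2c, Kif4 and Kif22, which work at kinetochores and on chromosome arms, were 1.02%, 1.51% and 2.17% in IL-3 and 4.5%, 4.9% and 8.07% in TSLP cultures. Kif20b and Kif23 were the exceptions.

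The cytokinesis genes Prc1, Ect2, Racgap1 and Anln were higher in immature cells of both cultures. Prc1, which bundles the central spindle, read 2.14, 1.46 and 1.35 CPM in IL-3 mature and 5.396, 4.26 and 3.08 CPM in TSLP mature libraries, after 77.6 ± 9.74 and 41.3 ± 9.71 CPM in the immature groups. Anln (anillin), of the contractile ring, was 3.03% and 9.63% of its immature level, Ect2, the RhoA activator, 4.84% and 8.86%, and Racgap1, of centralspindlin, 3.06% and 7.98%. Among the 5 spindle assembly genes, Tpx2, the activator of Aurora A, fell from 149, 150 and 129 to 2.49, 1.09 and 0.902 CPM in IL-3 libraries (log2 difference 6.49 ± 0.38, SE, edgeR adjusted p = 2.03e-09) and from 93.5, 85.6 and 62.7 to 6.21, 7.09 and 2.15 CPM in TSLP libraries. Nusap1, Dlgap5 and Ckap2l, which bind spindle microtubules, were 1.58%, 4.76% and 1.43% in IL-3 and 7.47%, 7.65% and 7.46% in TSLP cultures.

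The 4 chromatin and transcription genes were higher in immature cells of both cultures. Top2a, the topoisomerase that untangles sister chromosomes, read 572, 537 and 511 CPM in IL-3 immature and 6.06, 7.29 and 6.31 CPM in IL-3 mature libraries (log2 difference 6.35 ± 0.21, SE, edgeR adjusted p = 1.39e-11). In TSLP it read 347, 328 and 309 CPM in immature and 21.3, 18.7 and 17.2 CPM in mature libraries (4.10 ± 0.18, edgeR adjusted p = 1.37e-09). Foxm1, the transcription factor of G2 and M phase genes, was 35.7 ± 8.13 CPM in IL-3 immature and 35.96 ± 3.64 CPM in TSLP immature cells, with 3, 1 and 1 counts in IL-3 mature and 12, 19 and 12 in TSLP mature libraries. Pimreg, a mitotic regulator, had no count in IL-3 mature and 9, 3 and 3 in TSLP mature libraries.

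In IL-3 mature cells 6 genes stayed above 10% of the immature level: Pttg1 at 194%, Bub3 at 37%, Kif23 at 21.8%, Incenp at 17.3%, Kif20b at 15.4% and Hmmr at 11.5%. They were grouped after their values were seen, and apart from Pttg1 they were higher in immature cells of both cultures. In GRCm38, Pttg1 lies at chr11:43420250-43426251 (minus), Bub3 at chr7:131560222-131571895 (plus), Kif23 at chr9:61915905-61946774 (minus) and Incenp at chr19:9872296-9899551 (minus). Together the 6 read 137, 138 and 147.5 CPM in IL-3 mature libraries 1 to 3, and the other 50 genes 90.8, 83.8 and 71.7 CPM. Bub3 read 80.5, 90.8 and 103 CPM in IL-3 immature and 35.6, 31.3 and 36.5 CPM in IL-3 mature libraries, with 100.1, 92.6 and 97.7 and 67.5, 48.2 and 60.9 CPM in the TSLP groups. Incenp read 29.9, 34.2 and 25.7 CPM in IL-3 mature and 30.2, 28.9 and 24.3 CPM in TSLP mature libraries, which overlap. Kif23 (MKLP1), the motor of centralspindlin, read 165, 164 and 125 CPM in IL-3 immature and 28.9, 33.9 and 36.1 CPM in IL-3 mature libraries. It was 85.99, 99.6 and 63.7 CPM in TSLP immature and 15.1, 13.3 and 12 CPM in TSLP mature libraries, below every IL-3 library of the same stage. Kif20b (MPP1), a kinesin of late cytokinesis, read 15.3, 17.1 and 14.9 CPM in IL-3 mature and 6.75, 13.9 and 5.23 CPM in TSLP mature libraries. Hmmr, which anchors spindle poles, read 6.41, 7.29 and 14.9 and 6.75, 9.93 and 10.2 CPM. Of the centralspindlin pair, Kif23 was thus left at 21.8% and Racgap1 at 3.06% in IL-3 mature cells, a contrast that was not tested.

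**Figure D3:**
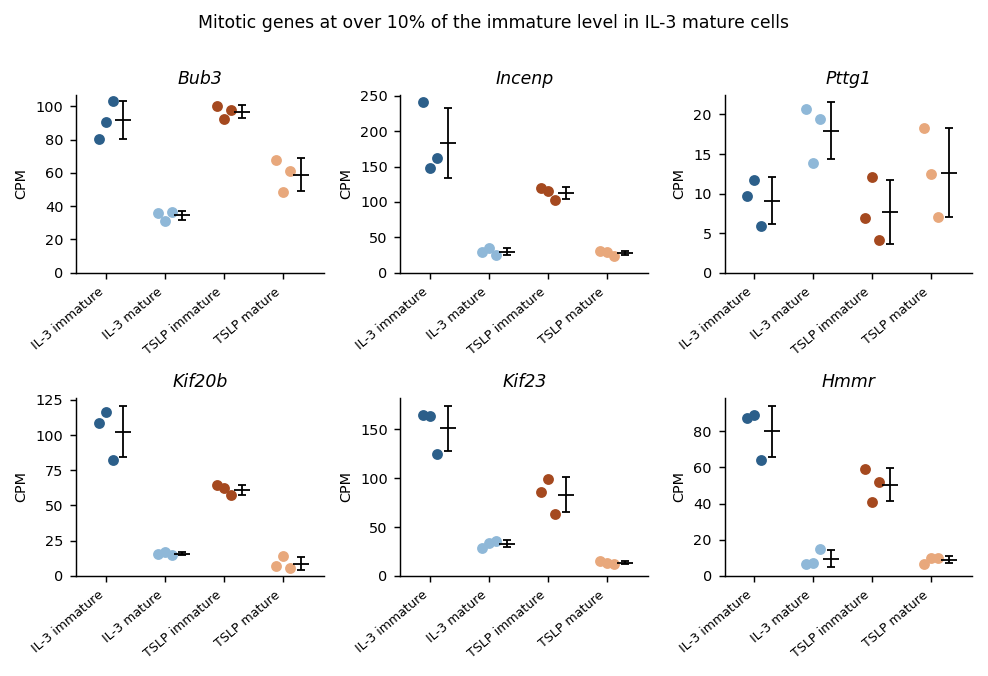
CPM of the 6 mitotic genes that stayed above 10% of their immature level in IL-3 mature cells, 1 panel per gene, with the 3 libraries of each group as points and the mean ± SD in black. Bub3, Incenp, Kif20b, Kif23 and Hmmr are lower in mature cells of both cultures, while Pttg1 is higher in IL-3 mature than in IL-3 immature libraries.

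To ask whether the cytokine set the mitotic transcripts of mature cells, TSLP mature and IL-3 mature cells were compared. Of the 56 genes, 28 were higher in TSLP mature cells (50%, against 12.4% of all tested genes) and 2, Kif23 and Kif20b, were lower (3.57%, against 11.9%, edgeR adjusted p below 0.05). Most of the 28 are among the 38 genes that passed the filter on low counts only through immature cells. The shares of all tested genes given here are therefore not a like comparison. The median log2 difference was 1.54 over the 56 genes (1.43 with the 6 genes without counts in IL-3 mature cells at their bound) and 0.09 over all tested genes. For 26 genes each TSLP mature library exceeded each IL-3 mature library (46.4%, against 20.9%) and for 2 each was lower (3.57%, against 17.7%). The 50 genes other than the 6 named above summed to 272, 183 and 170.2 CPM in TSLP mature libraries 1 to 3 and to 71.7 to 90.8 CPM in IL-3 mature libraries. The 6 summed to 145, 127 and 119.7 CPM in TSLP mature libraries. Since the 6 were chosen for their level in IL-3 mature cells, the contrast between the 6 and the 50 is in part set by that choice and supports nothing.

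Top2a was 1.54 ± 0.20 higher on the log2 scale in TSLP mature cells (SE, edgeR adjusted p = 0.000206), Mki67 1.46 ± 0.26 (edgeR adjusted p = 0.00131) and Foxm1 2.60 ± 0.49 (edgeR adjusted p = 0.00211). Mki67 read 16.2, 31.2 and 20.3 CPM in TSLP mature libraries, and all 3 were above the IL-3 mature range of 6.77 to 9.47. The 4 chromatin and transcription genes and 6 of 13 kinetochore genes passed on the higher side, with 5 of 9 kinesins, 4 of 8 kinases and cyclins, 3 of 5 checkpoint genes and 2 of 4 APC/C genes. Each of the passenger complex (Aurkb) and the cytokinesis group (Prc1) had 1 gene higher, and 2 of 5 spindle assembly genes were higher (Tpx2 and Nusap1). Bub3 was higher by 0.77 ± 0.18 (log2, SE, edgeR adjusted p = 0.0062), Kif11 by 1.41 ± 0.35 (adjusted p = 0.00967), Cdk1 by 1.89 ± 0.48 (adjusted p = 0.0108) and Ube2c by 1.07 ± 0.29 (adjusted p = 0.0153). Kif23 was lower, at -1.28 ± 0.22 (edgeR adjusted p = 0.0011), as was Kif20b at -0.87 ± 0.29 (adjusted p = 0.0419). The log2 differences of Ttk (-0.02 ± 0.92), Cenpf (-0.25 ± 0.36), Hmmr (-0.06 ± 0.32), Incenp (-0.11 ± 0.21) and Spc24 (-0.29 ± 0.36) did not pass. Ccnb2 (1.13 ± 0.42, edgeR adjusted p = 0.0604), Anln (1.29 ± 0.45, adjusted p = 0.0562) and Birc5 (1.26 ± 0.54, adjusted p = 0.102) did not pass either.

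Only 18 of the 56 genes would pass the filter on low counts in the 6 mature libraries alone. The other 38 were tested because immature cells express them, and in mature cells they rest on few counts. In a fit of the mature groups alone, 4 of these 18 were higher in TSLP mature cells (Bub3, Top2a, Mki67 and Foxm1, against 7.15% of the 9840 genes tested there) and Kif23 was lower (against 10.3%). Of these, Foxm1 had 3, 1 and 1 counts in IL-3 mature and 12, 19 and 12 in TSLP mature libraries. It thus passed this filter only through the group where it was higher, and the share of 7.15% is not a like comparison either. Leaving out TSLP mature 1 gave 16 genes in place of 28, leaving out IL-3 mature 2 gave 17 and leaving out IL-3 mature 3 gave 16. The genes that no longer passed without TSLP mature 1 were Aurkb, Plk1, Cdk1, Ube2c, Cenpm, Ndc80, Knstrn, Kif11, Kif22, Prc1, Tpx2 and Nusap1 (edgeR adjusted p = 0.0507 to 0.248), and Kif20b on the lower side (0.0701). TSLP mature 1, with its B lineage and neutrophil lineage transcripts, was the highest TSLP mature library for 34 of 56 genes (60.7%, against 41.4% of all tested genes), and its part in the result was not tested. The other 2 TSLP mature libraries also held more B lineage RNA than IL-3 mature cells, and a lower neutrophil lineage sum (76.9 and 92.8 CPM, against 207 to 317). Genes of the neutrophil list went opposite ways. In TSLP mature 2 and 3, S100a9 read 9.36 and 4.62 CPM, against 98.7 to 132 CPM in IL-3 mature libraries. Chil3 was higher, at 67.2 and 57.9 CPM against 14.4 to 38.8 CPM. The monocyte and macrophage list summed higher in TSLP mature (363 to 621 CPM) than in IL-3 mature libraries (226 to 316 CPM). Within it Adgre1 read 173 to 214.5 and 78.9 to 113 CPM, while Ly6c2 overlapped, at 126.8 to 327.5 and 125.7 to 162.1 CPM. The part of these transcripts in the result was not tested.

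**Figure D4:**
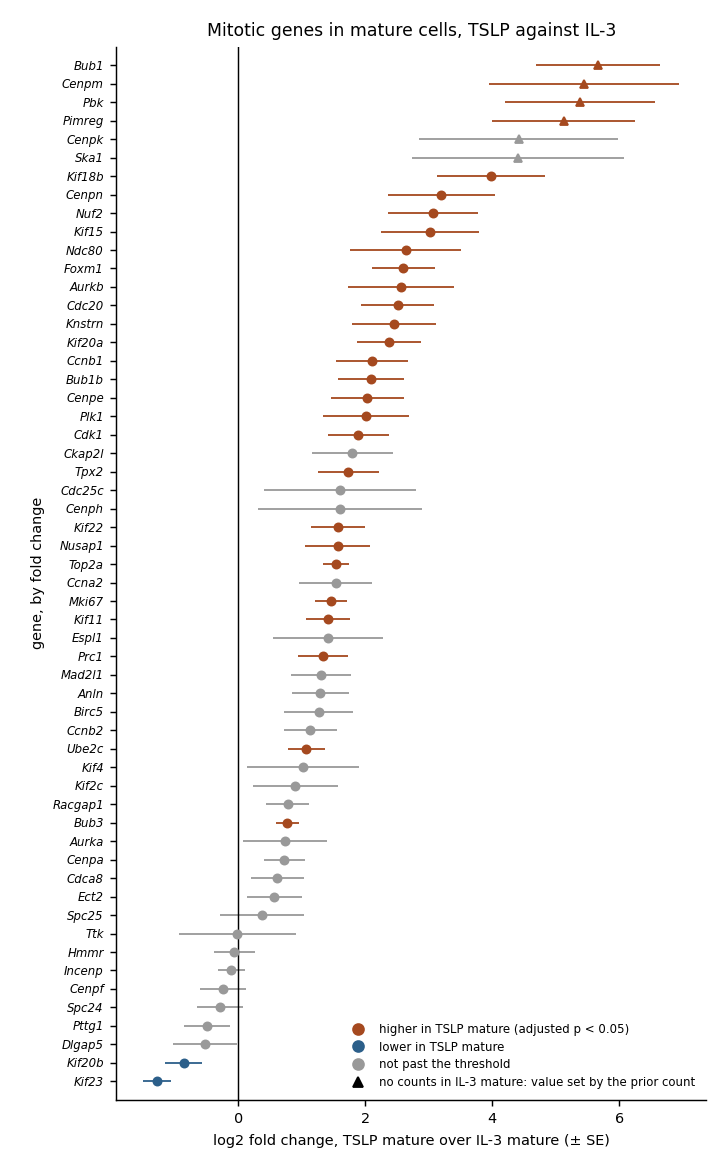
Fitted log2 fold change of each mitotic gene, TSLP mature over IL-3 mature, with its SE, ordered by size (3 libraries per group). Of the 56 points, 28 in orange passed on the higher side and 2 in blue, Kif23 and Kif20b, on the lower side. Triangles mark the 6 genes with no count in IL-3 mature cells, whose position depends on the prior count.

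**Figure D5:**
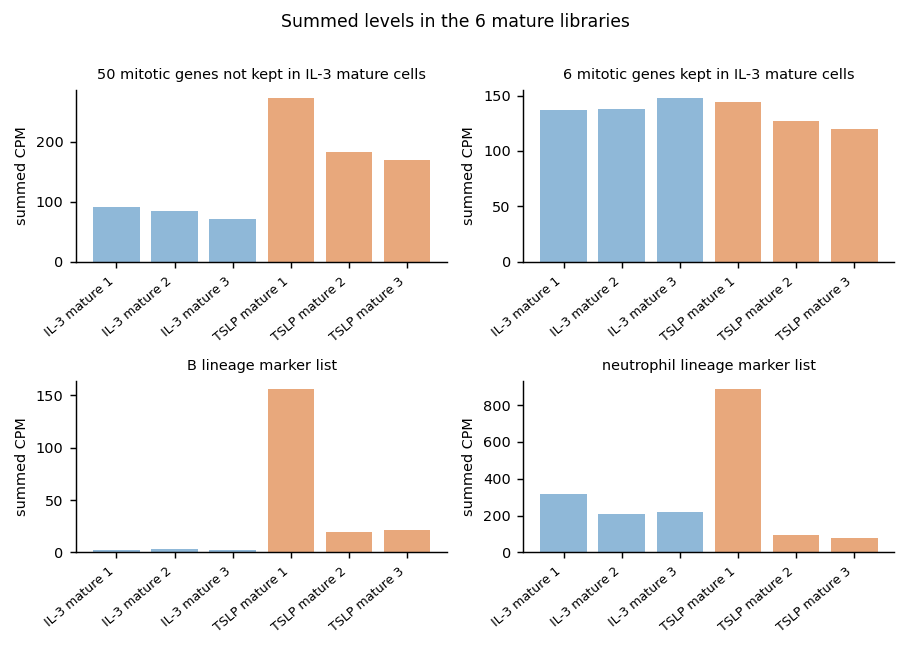
Summed CPM in each of the 6 mature libraries, from 0, of the 50 mitotic genes under 10% in IL-3 mature cells, the 6 above 10%, and the B lineage and neutrophil lineage marker lists. The 50 genes read 71.7 to 90.8 CPM in IL-3 and 170.2 to 272 CPM in TSLP libraries, and TSLP mature 1 has the highest sum of both marker lists. The 50 and the 6 were split by their level in IL-3 mature cells, so the contrast between these panels is in part set by the split.

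With more than 3 counts over the 3 libraries of a group as the limit of detection, 15 of the 56 genes were detectable in TSLP mature but not in IL-3 mature cells, against 1.2% of all tested genes. None was detectable in IL-3 mature cells alone, where 0.12% of all tested genes were, and 41 were in both. All 15 are among the 38 genes that passed the filter on low counts only through immature cells. They rest on few counts in mature cells, so the shares of all tested genes are not a like comparison. The floor of 3 counts equals 0.39 CPM in IL-3 mature and 0.29 CPM in TSLP mature cells. The 15 were Bub1 and Ttk of the checkpoint, Aurkb, the kinases and phosphatase Pbk and Cdc25c, the kinetochore genes Cenph, Cenpk, Cenpm, Cenpn, Ndc80, Nuf2 and Ska1, the kinesins Kif15 and Kif18b, and Pimreg. Against this floor, Bub1 was 5.44-fold higher in TSLP mature cells (edgeR adjusted p = 0.00156) and Cenpm 4.7-fold (adjusted p = 0.0183, counts 15, 1 and 3). Pbk was 4.45-fold higher (edgeR adjusted p = 0.00572) and Pimreg 3.71-fold (adjusted p = 0.00593). These are ratios to the floor, not lower bounds. The 95% counting intervals began lower, at 4.06 for Bub1, 3.46 for Cenpm, 3.26 for Pbk and 2.66 for Pimreg. Without TSLP mature 1 the ratios to the floor were 4.21-fold for Bub1 and Pbk, 2.29-fold for Pimreg and 1.53-fold for Cenpm, and Cenpm no longer passed (edgeR adjusted p = 0.0642). Cenpk and Ska1 had no count in IL-3 mature cells either, but did not pass (edgeR adjusted p = 0.0547 and 0.0697), with 3, 6 and 0 and 8, 1 and 0 counts in TSLP mature libraries. Kif18b had 1 count in IL-3 mature and 16, 8 and 4 in TSLP mature libraries, a ratio of 20.8 (95% counting interval 3.43 to 849). Nuf2 had 2 and 12, 9 and 5, a ratio of 9.64 (interval 2.41 to 83.8), and Kif15 2 and 12, 10 and 3 (9.27, 2.31 to 80.7). Ndc80 and Aurkb overlapped between the groups, with 9, 2 and 8 and 15, 2 and 9 counts in TSLP mature libraries.

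For 3 of the 15 the counts in both groups were near the limit. Ttk had 3 counts in IL-3 mature and 4 in TSLP mature cells, and Cdc25c and Cenph had 1 and 5 each, and none of the 3 passed the test between the mature groups. Cenpn had 1 count in IL-3 mature and 5, 7 and 4 in TSLP mature libraries (edgeR adjusted p = 0.0127). The number of genes became 27 when IL-3 mature 1 was omitted and 12 and 11 when TSLP mature 1 or 2 was. The limit of 3 counts was kept for the libraries left. Omitting an IL-3 mature library could thus not lower the number, and omitting a TSLP mature library could not raise it. With a group mean of at least 1 CPM as the limit, the number was 23 (against 2.08% of all tested genes). Of the 56 genes, IL-3 mature libraries 1 to 3 held at least 1 count for 49, 41 and 36, and TSLP mature libraries for 56, 55 and 51, although the TSLP libraries were also the deeper ones. With all libraries thinned to 1720065 counts, 18 genes were detectable in TSLP mature cells alone (against 1.57% of all tested genes) and none in IL-3 mature cells alone (against 0.681%). With a count in every library as the limit, 18 were detectable in TSLP mature alone (against 1.64%) and 1 in IL-3 mature alone (against 0.608%).

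The immature fractions were compared in the same way. No mitotic gene was higher in TSLP immature than in IL-3 immature cells (0 of 56, against 7.38% of all tested genes; none at an unadjusted p below 0.05 and none with DESeq2), and 19 were lower (33.9%, against 5.9%, edgeR adjusted p below 0.05). The median log2 difference was -0.59, against 0.04 over all tested genes. Mki67 was 666 ± 65.8 CPM in IL-3 immature and 428 ± 24.2 CPM in TSLP immature cells (log2 difference -0.64 ± 0.20, SE, edgeR adjusted p = 0.048) and Top2a 539.9 ± 30.4 and 328 ± 19.2 CPM (-0.72 ± 0.16, adjusted p = 0.00695). The smallest p values (edgeR adjusted p after each) were those of Kif2c, at 61.1, 59.7 and 69.2 and 27.7, 29.7 and 25.5 CPM (-1.20 ± 0.23, adjusted p = 0.00309), Cenpe (-1.02 ± 0.22, adjusted p = 0.00638), Top2a, Dlgap5 (-1.28 ± 0.28, adjusted p = 0.00723), Kif23 (-0.86 ± 0.19, adjusted p = 0.00771) and Prc1 (-0.90 ± 0.20, adjusted p = 0.00849). Kif15 (-0.96 ± 0.24), Pbk (-1.003 ± 0.25), Cenpk (-1.79 ± 0.47), Incenp (-0.70 ± 0.19), Tpx2 (-0.82 ± 0.24) and Aurka (-0.98 ± 0.30) were lower too, as were Spc24 (-0.64), Spc25 (-0.83), Bub1 (-0.67), Kif20b (-0.74), Cenpf (-0.67) and Cenph (-1.41). Aurka in TSLP immature libraries read 40.3, 45.3 and 15.7 CPM, with library 3 apart. Cdc20 (0.002 ± 0.22), Foxm1 (0.01 ± 0.21), Cenpa (-0.05 ± 0.25), Kif18b (-0.06 ± 0.25) and Bub3 (0.08 ± 0.17) did not pass. The count of lower genes depended on single libraries. It dropped to 6 or 9 when IL-3 immature 1 or 2 was left out, to 10, 8 or 5 when TSLP immature 1, 2 or 3 was, and to 12 when IL-3 mature 2 was. It rose to 30 when TSLP mature 1 was left out and to 32 (against 10.2% of all genes tested) with the immature groups alone in the fit. Neutrophil lineage genes other than Mpo summed to 17.4 to 43.6 CPM in TSLP immature and 59.3 to 92.6 CPM in IL-3 immature libraries (323 to 410.1 and 743 to 819 CPM with Mpo), B lineage genes to 28.1 to 33.0 and 6.31 to 6.95 CPM. The ribosomal RNA Rn45s took 17.55% to 20.15% of the counts in TSLP immature and 7.43% to 12.5% in IL-3 immature libraries, without overlap. The part of these differences in the result was not tested.

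Whether the effect of maturation itself differed between the cytokines was tested as an interaction. For 24 genes the immature-to-mature difference was smaller in TSLP (42.9%, against 2.04% of all tested genes) and for none was it larger (against 2.15%; none at an unadjusted p below 0.05 and none with DESeq2). Most of the 24 are among the 38 genes that passed the filter on low counts only through immature cells. Their values rest on few counts in mature cells, so these shares are not a like comparison. The median of the interaction was -2.13 on the log2 scale (-2.10 with the 6 genes at their bound), against 0.02 over all tested genes. Top2a (-2.26 ± 0.26, SE, edgeR adjusted p = 0.000143), Mki67 (-2.10 ± 0.33, adjusted p = 0.00203), Cenpe (-3.06 ± 0.61, adjusted p = 0.00877), Prc1 (-2.24 ± 0.44, adjusted p = 0.00877) and Tpx2 (-2.55 ± 0.54, adjusted p = 0.0124) were among the 24. For Plk1 (-2.38 ± 0.73, edgeR adjusted p = 0.0777), Aurkb (-2.88 ± 0.89, adjusted p = 0.0796) and Ccnb2 (-1.58 ± 0.46, adjusted p = 0.0665) the estimates were also negative but did not pass. Kif20b (0.12 ± 0.37), Kif23 (0.42 ± 0.29), Pttg1 (0.23 ± 0.55) and Ttk (-0.38 ± 1.06) did not pass either. Leaving out a single library gave 11 to 26 genes, the lowest counts being 11 when IL-3 mature 3 and 13 when IL-3 mature 2 was omitted, and 18 when TSLP mature 1 was.

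A further 109 genes of the mitotic pathway, outside the list of 56, were all tested. In IL-3 cultures 77 were higher in immature cells (against 22.1% of all tested genes), 4 were lower (against 24.1%) and 28 did not pass. The median log2 difference was 1.67. In TSLP cultures 68 were higher (against 12.2%) and 4 lower (against 12.9%), with a median of 1.22. The values that follow are log2 differences of IL-3 immature over IL-3 mature cells. All 8 condensin subunits were higher in IL-3 immature cells, among them Smc4 (1.97, edgeR adjusted p = 3.5e-07) and Ncapd2 (5.50, adjusted p = 1.64e-09). Of 18 other G2 and M phase regulators 17 were higher, with Cks2 at 2.06 and Cks1b at 6.63, and Bora (0.61, edgeR adjusted p = 0.0987) did not pass. Of 27 other kinetochore and checkpoint genes 20 were higher, with Hjurp, the chaperone of CENP-A, at 3.15. Of 13 cohesin genes 10 were higher, such as Rad21 at 1.24, and 1 was lower (Esco1, -0.56). Of 15 APC/C subunits with the second activator Cdh1, 6 were higher, Anapc2 was lower (-0.70, edgeR adjusted p = 0.00796) and 8 did not pass. Of the 11 tubulin and gamma-tubulin genes 5 were higher, with Tuba1b at 1.93, and Tubb2a was lower (-2.17). Another set of 11 genes held the MuvB core, B-MYB, the pocket proteins, E2f4, Tfdp1 and Tfdp2, and 7 of these were higher. Rbl2 (p130), a pocket protein of resting cells, was lower in IL-3 immature cells (-1.27, edgeR adjusted p = 7.16e-05). Of 6 centriole duplication genes 4 were higher, among them Plk4 at 3.96.

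Between the mature groups, 24 of these 109 genes were higher in TSLP (against 12.4% of all tested genes) and 8 lower (against 11.9%). Of the 56, 28 were higher and 2 lower. Between the immature groups 3 of the 109 were higher in TSLP (against 7.38%) and 17 lower (against 5.9%). For 13 the effect of maturation was smaller in TSLP (against 2.04%) and for none larger (against 2.15%). Detection gave 13 of 109 genes in TSLP mature cells alone (among them Cdca5, Nek2, Melk and Sgo1, against 1.2% of all tested genes). It gave none in IL-3 mature cells alone (against 0.12%). Promoter windows were matched for 91 of the 109, and 36.3% held a CHR word (against 19.4% of all windows) and 52.7% CCAAT (against 37.9%).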

How the data were processed

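Polyadenylated RNA of sorted BMBAs was sequenced on an Ion Proton after PCR amplification of whole-transcriptome cDNA, with 3 libraries in each of 4 groups taken from the sample labels. The values are raw counts per gene symbol, deposited by the authors as 1 table. The authors trimmed adapters with Cutadapt, aligned reads with Bowtie2 to mouse reference RNA of GRCm38 and counted them per gene. The labels' processing notes also name GRCm39 and mm10, without a role. The use of strand, of reads that fit several transcripts and of molecular identifiers is not given in the sources used here. Exons of 14 of the genes (Cdca8, Plk1, Ccna2, Cdc25c, Cdc20, Ube2c, Cenpk, Knstrn, Kif4, Kif20a, Kif22, Prc1, Nusap1 and Ckap2l) overlap a gene on the other strand, whose reads cannot be told apart without strand. The study's own test, by TCC, was not run. An unnamed row that held the column total (50% of each column) was left out, and 0 columns were unmapped.

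All genes that passed the filter entered 1 fit. From the 31301 genes, edgeR 4.0.16 in R 4.3.3 (low counts removed by filterByExpr at min.count 10 and min.total.count 15, TMM, 1 mean per group over all 12 libraries, quasi-likelihood F test) tested 10861 genes, with Benjamini-Hochberg adjustment over all of them and a threshold of 0.05. The common biological coefficient of variation was 20.4%. Library totals were 1720065 to 3685285, and 3 counts over a group served as the floor, which with the 95% intervals covers counting error only. CPM use TMM-scaled library sizes. The percentage left in mature cells is the ratio of counts over summed library sizes. Alternatives were DESeq2 1.42.0 (size factors, Wald test), TMM on uncalled genes, other filters, thinning to 1720065 counts, a replicate block, the 2 compared groups alone, other detection limits and leaving out each library. Promoter windows are from RefSeq (GRCm38.p6), gene spans from GENCODE (GRCm38), and the share of 50-base words found in other genes was counted over its transcripts.

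Genes given with full statistics were a preset selection over the roles, those that passed between cytokines or in the interaction, those not called between the IL-3 stages, and those detectable in TSLP mature cells alone. For other genes of the pathway, up to 4 examples per group are given. The 56 genes, the other lists and these rules were chosen with earlier results of these data known.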

Additional observations from a re-analysis of the deposited data

Results flagged for a closer look

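The change with maturation differed between the cytokines for 24 of the 56 mitotic genes, by the test of that difference itself (the interaction in edgeR, adjusted p below 0.05). The values are the immature minus mature difference in TSLP minus that in IL-3 cultures, on the log2 scale, and all 24 were negative. Among checkpoint genes they were -6.34 for Bub1 and -2.54 for Bub1b, and among kinases and cyclins -2.23 for Cdk1, -2.50 for Ccnb1 and -6.39 for Pbk. Around the APC/C they were -2.51 for Cdc20 and -1.32 for Ube2c. The kinetochore genes stood at -3.06 for Cenpe, -6.21 for Cenpk, -3.78 for Cenpn, -3.66 for Nuf2 and -3.04 for Knstrn. The kinesins stood at -1.88 for Kif11, -3.97 for Kif15, -4.04 for Kif18b, -2.48 for Kif20a and -1.86 for Kif22. The remaining genes stood at -2.24 for Prc1, -2.55 for Tpx2, -2.16 for Nusap1, -2.26 for Top2a, -2.10 for Mki67, -5.64 for Pimreg and -2.59 for Foxm1. For Bub1, Pbk, Cenpk and Pimreg, which had no count in IL-3 mature cells, the size of the value depends on the prior count and is no bound. Most of the 24 are among the 38 genes that passed the filter on low counts only through immature cells, and rest on few counts in mature cells.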

How the results depend on the processing

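The counts of 55 genes higher in immature cells were 54 or 55 in IL-3 and 52 to 55 in TSLP cultures under the alternatives run, and no called result changed direction. The single lower gene in IL-3 immature cells, Pttg1, gave 0 calls with DESeq2 size factors, with TMM on uncalled genes, with a filter of 10 CPM in 3 libraries, with the DESeq2 Wald test and after thinning, and 0 to 1 when a library was left out. The count of genes higher in TSLP mature cells (28) became 4 with the mature groups alone, where 18 of the 56 genes were tested, and 16 to 27 when a library was left out, not always of the same genes. The count of 2 lower genes became 1 with the mature groups alone and 1 to 2 when a library was left out. The count of 19 genes lower in TSLP immature cells became 32 with the immature groups alone and 5 to 30 when a library was left out. The cause of that rise was not tested. The count of 24 in the interaction became 11 to 26 when a library was left out. The count of 15 detectable in TSLP mature cells alone became 23 with a group mean of at least 1 CPM, and 11 to 27 when a library was left out. The limit of 3 counts was kept for the libraries left, which sets the direction of the change with each library.

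Replicate numbers are shared between the groups, but the labels do not say that they mark a shared culture of both stages or cytokines, and correlations of same-numbered deviations ran from -0.077 to 0.388, with 24 of 36 library and group pairs highest for their own number. With the replicate number as a block, 30 genes were higher and 2 lower in TSLP mature cells, 20 were lower in TSLP immature cells and 27 passed the interaction. In the mature libraries 38 of the 56 genes were below the filter on low counts, which limits statements on single genes there.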
